A study of Mus musculus with 2 samples.

Results

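The 7 genes described here are the adult alpha-globin genes Hba-a1 and Hba-a2, the adult beta-globin genes Hbb-bs and Hbb-bt, and the red cell genes Alas2, Slc4a1 and Rhd, picked by symbol from the 31053 genes of the deposited tables. All 7 were found under 1 identifier each. Their unique molecular identifier (UMI) counts were taken from every deposited barcode, with no quality filter, because most barcodes rich in hemoglobin hold few genes. The tables come from mice of the genotype R26[CA]30EYFP with C57Bl/6J as the strain background, a genotype named for a CA repeat and the yellow fluorescent reporter EYFP. The pancreas was sampled post-pancreatitis, and its EYFP positive and EYFP negative cells gave 1 single-cell library each. Both libraries share the genotype and the pancreatitis, and their treatment is labelled as none. How many animals gave the cells, how old they were and how long after pancreatitis they were sampled is not stated in the labels. The table holds 0 reporter genes, so the sort could not be checked from the counts.

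Hemoglobin is a tetramer of alpha-like and beta-like chains, each with a heme group. Red cell precursors make globin, heme and membrane proteins together while they divide in marrow and spleen, then lose their nucleus, and young red cells in blood still carry globin mRNA. Alas2 is the erythroid enzyme that starts heme synthesis, Slc4a1 encodes the anion exchanger band 3 of the red cell membrane, and Rhd encodes an Rh blood group protein. Red cells reach a tissue sample with its blood, and hemoglobin mRNA set free in a cell suspension can enter droplets that hold other cells.

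In all, 4006807 UMIs in 1717 barcodes (median 921) were deposited for the EYFP positive cells and 5295816 UMIs in 745 barcodes (median 6885) for the EYFP negative cells. The libraries shared 4 barcode sequences, and 0 of these were red cell barcodes in either library. Pancreatic acinar secretory genes had a UMI in all 1664 EYFP positive barcodes outside the red cell barcodes and made up 5.08% of their UMIs, against 232 of 652 barcodes and 0.197% of UMIs in the EYFP negative library. With 1 library per group no difference below has a replicate check or a test. The 95% intervals in parentheses cover counting error only.

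The globin genes lie as near copies in 2 clusters, which bears on how their reads can be told apart. In GENCODE M21 (GRCm38), Hba-a1 spans chr11:32283511-32284465 and Hba-a2 spans chr11:32296489-32297298, both on the plus strand. Hbb-bs spans chr7:103826534-103828096 and Hbb-bt spans chr7:103812524-103813996, both on the minus strand. Alas2 spans chrX:150547375-150570638 on the plus strand, Slc4a1 spans chr11:102348824-102366203 on the minus strand and Rhd spans chr4:134864536-134896172 on the plus strand. The aligned parts of the Hba-a1 and Hba-a2 transcripts are 99.8% identical, with 1 mismatch in 538 bases. Of the 50-base windows of the Hba-a1 transcript, 67.5% occur unchanged in that of Hba-a2. For Hbb-bs and Hbb-bt the identity is 93.1%, and 65.8% of the 50-base windows of Hbb-bs occur in Hbb-bt. A read from such a window fits both copies, so the split of UMIs within each pair is uncertain, and the sum over the 4 genes, called the hemoglobin level here, is used first.

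The promoters are shown because all 4 globin genes were found in the same barcodes while the share of Hbb-bt differed between them. Each line gives the 130 bases before the RefSeq start of the gene, with capitals for matches on either strand to a CACCC motif (bound by Klf1), to CCAAT (the CCAAT box), to the GATAA core bound by Gata1, or to TATAA (the TATA box).
Hba-a1, chr11:32283542-32283671, plus strand: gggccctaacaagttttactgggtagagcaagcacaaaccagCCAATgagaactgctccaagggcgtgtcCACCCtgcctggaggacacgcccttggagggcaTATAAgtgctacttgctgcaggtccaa
Hbb-bs, chr7:103827929-103828058, minus strand: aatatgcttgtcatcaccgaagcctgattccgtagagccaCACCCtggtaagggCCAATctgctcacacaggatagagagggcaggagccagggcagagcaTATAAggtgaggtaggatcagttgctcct
Hbb-bt, chr7:103813924-103814053, minus strand: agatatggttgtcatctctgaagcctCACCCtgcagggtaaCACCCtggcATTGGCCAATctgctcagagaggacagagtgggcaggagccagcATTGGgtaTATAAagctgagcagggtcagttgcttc
Alas2, chrX:150547287-150547416, plus strand: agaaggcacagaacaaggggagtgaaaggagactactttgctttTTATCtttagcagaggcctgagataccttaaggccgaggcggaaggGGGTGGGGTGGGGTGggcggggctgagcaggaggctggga

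The sequences are those of RefSeq on GRCm38.p6, and 6 of the 7 members were in that table. All 3 globin promoters shown hold a match to the CACCC motif, to the CCAAT box and to the TATA box. The CCAAT box lies farthest from the start in Hba-a1, and the CACCC motif lies farthest from it in Hbb-bs and Hbb-bt. Their TATAA match begins 27 bases before the start in Hba-a1, 29 in Hbb-bs and 28 in Hbb-bt. Hbb-bt has 2 CACCC and 3 CCAAT matches in the stretch shown, and Hbb-bs has 1 of each. Over the 250 bases before the start, Hba-a1 and Hba-a2 are identical in all 247 aligned bases, and Hbb-bs and Hbb-bt in 77.4% of 239. Among 32851 promoter windows of 250 bases, 52.0% hold CACCC, 33.8% CCAAT, 22.6% GATAA and 22.8% TATAA on either strand, so a single match is common. Alas2 has a GATAA match and 3 abutting CACCC matches, all read on the other strand, and none of the matches in capitals overlaps another.

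A red cell barcode was defined as one with at least 10 hemoglobin UMIs that made up at least 10% of its UMIs. This rule picked 53 of 1717 EYFP positive barcodes (3.09%, 2.32 to 4.02) and 93 of 745 EYFP negative barcodes (12.5%, 10.2 to 15.1). They held 117274 of 119604 hemoglobin UMIs (98.1%) in the EYFP positive library, against 404236 of 405076 (99.8%) in the EYFP negative library. This rule used hemoglobin itself, so these shares describe the barcodes it chose. For the same reason nothing is read from the members' rank against the rest of their library, where all 7 were more than 2-fold higher in EYFP negative red cell barcodes (2.43% of 11365 genes were, and 60.6% were more than 2-fold lower). Likewise all 5 members that could be counted were more than 2-fold higher in EYFP positive red cell barcodes (0.623% of 12037 genes were, and 26.8% were more than 2-fold lower). The red cell barcodes had a median of 69 genes in the EYFP positive library, against 36 in the EYFP negative library. A quality filter (200 or more genes, mitochondrial UMIs up to 20%) would keep 10 of 53 red cell barcodes in the EYFP positive library, against 6 of 93 in the EYFP negative library.

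The rule separated the EYFP negative barcodes cleanly and the EYFP positive ones less so. Just inside the 10% limit in the EYFP positive library were barcodes with 10.1%, 10.1% and 10.6% hemoglobin, and just outside it barcodes with 9.76%, 9.53% and 9.16%. In that library 17 barcodes held 5% to under 10% hemoglobin and 10 held 10% to under 20%. In the EYFP negative library the lowest red cell barcode stood at 58.4% and the next barcode below at 1.16%. With limits of 5%, 25% and 50%, 70, 41 and 38 EYFP positive barcodes would be taken, against 93 EYFP negative barcodes at each limit.

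**Figure D1:**
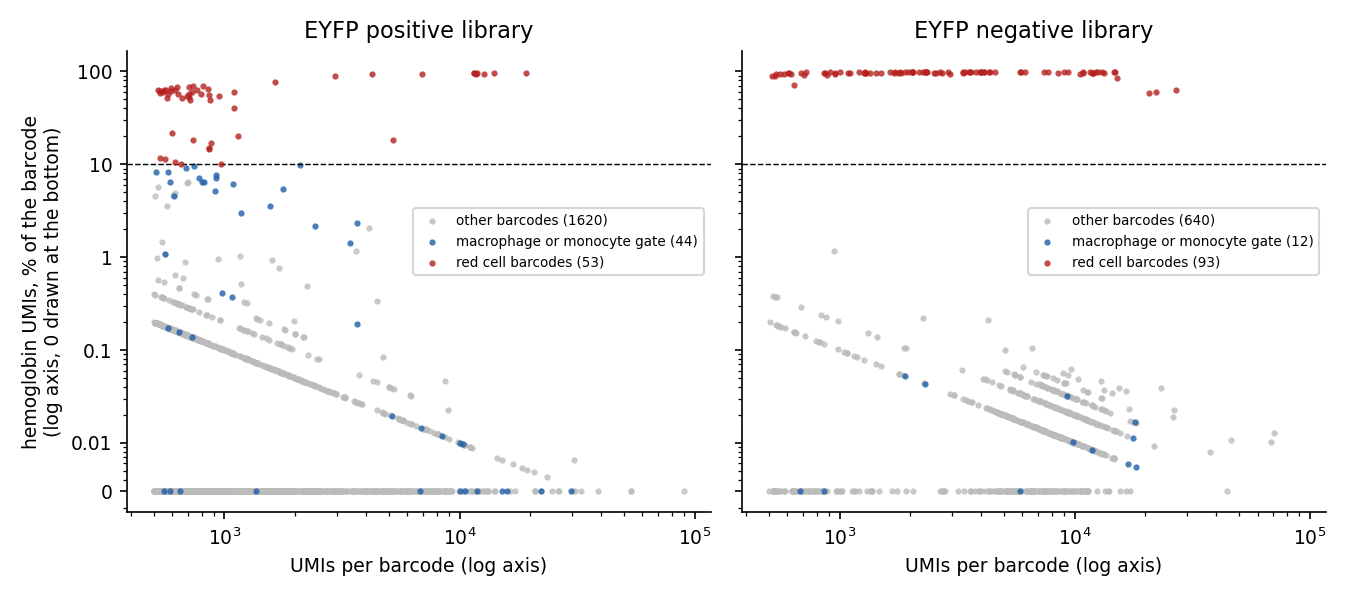
Hemoglobin UMIs as a percent of each barcode's UMIs (log axis, with 0 at the bottom) against its total UMIs (log axis), EYFP positive barcodes on the left and EYFP negative barcodes on the right, with the 10% limit dashed. The 93 EYFP negative red cell barcodes all lie at 58.4% or above, while the 53 EYFP positive ones run down to 10.1% and meet barcodes of the macrophage or monocyte gate.

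Over all barcodes the hemoglobin genes, Alas2, Slc4a1 and Rhd were all lower in the EYFP positive library. Hemoglobin stood at 29850 counts per 1e6 UMIs (CPM) (29681 to 30020) in the EYFP positive library, against 76490 CPM (76254 to 76726) in the EYFP negative library, a fold of 0.390 (0.388 to 0.393). Of the 7 members, 6 were more than 2-fold lower and 0 more than 2-fold higher. Of 13391 genes with at least 10 UMIs, 14.0% were more than 2-fold lower and 23.1% more than 2-fold higher. The median log2 fold was -1.55 over the members and -0.12 over all these genes.

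Among the alpha-globin genes, Hba-a1 had 25861 UMIs (6454 CPM) in the EYFP positive library, against 99834 UMIs (18852 CPM) in the EYFP negative library, 2.92-fold lower (2.88 to 2.96). Hba-a2 had 20344 UMIs (5077 CPM) in the EYFP positive library, against 73201 UMIs (13822 CPM) in the EYFP negative library, 2.72-fold lower (2.68 to 2.77). Both alpha-globin genes were thus low in the EYFP positive library by a similar factor. Of the beta-globin genes, Hbb-bs had 61077 UMIs (15243 CPM) in the EYFP positive library, against 204032 UMIs (38527 CPM) in the EYFP negative library, 2.53-fold lower (2.50 to 2.55). Hbb-bt had 12322 UMIs (3075 CPM) in the EYFP positive library, against 28009 UMIs (5289 CPM) in the EYFP negative library, 1.72-fold lower (1.68 to 1.76). Hbb-bt had the smallest difference of the 4 hemoglobin genes over all barcodes. Under the quality filter it had the largest, with a fold of 0.0589, against 0.0657 for Hba-a1, 0.0744 for Hba-a2 and 0.114 for Hbb-bs. These filtered folds rest on few barcodes. In the EYFP negative library 6 red cell barcodes held 75988 of the 76772 hemoglobin UMIs kept. In the EYFP positive library 1 barcode held 132 of the 299 Hbb-bt UMIs kept.

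Alas2, the heme synthesis enzyme, had 143 UMIs (35.7 CPM, 30.1 to 42.0) in the EYFP positive library, against 622 UMIs (117 CPM, 108 to 127) in the EYFP negative library, 3.29-fold lower (2.74 to 3.98). Slc4a1, the anion exchanger, had 2 UMIs in 2 EYFP positive barcodes and 174 UMIs in 10 EYFP negative barcodes, 65.8-fold lower (17.95 to 548). Rhd had 0 UMIs in the EYFP positive library, which allows up to 0.749 CPM (3 UMIs), and 90 UMIs (16.99 CPM) in the EYFP negative library, at least 22.7-fold lower with 0 taken as 3 UMIs. The membrane genes therefore differed by more than the globin genes and Alas2.

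The 2 membrane genes came from very few EYFP negative barcodes. All 90 Rhd UMIs lay in 3 red cell barcodes, with 41, 30 and 19 each. The same 3 barcodes held 59, 65 and 31 of the 174 Slc4a1 UMIs. Without these 3 barcodes, a choice made after seeing the data, Slc4a1 stood at 2 UMIs in the EYFP positive library, against 19 in the EYFP negative library, 7.27-fold lower (1.75 to 64.4), and Rhd at 0 in both.

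**Figure D2:**
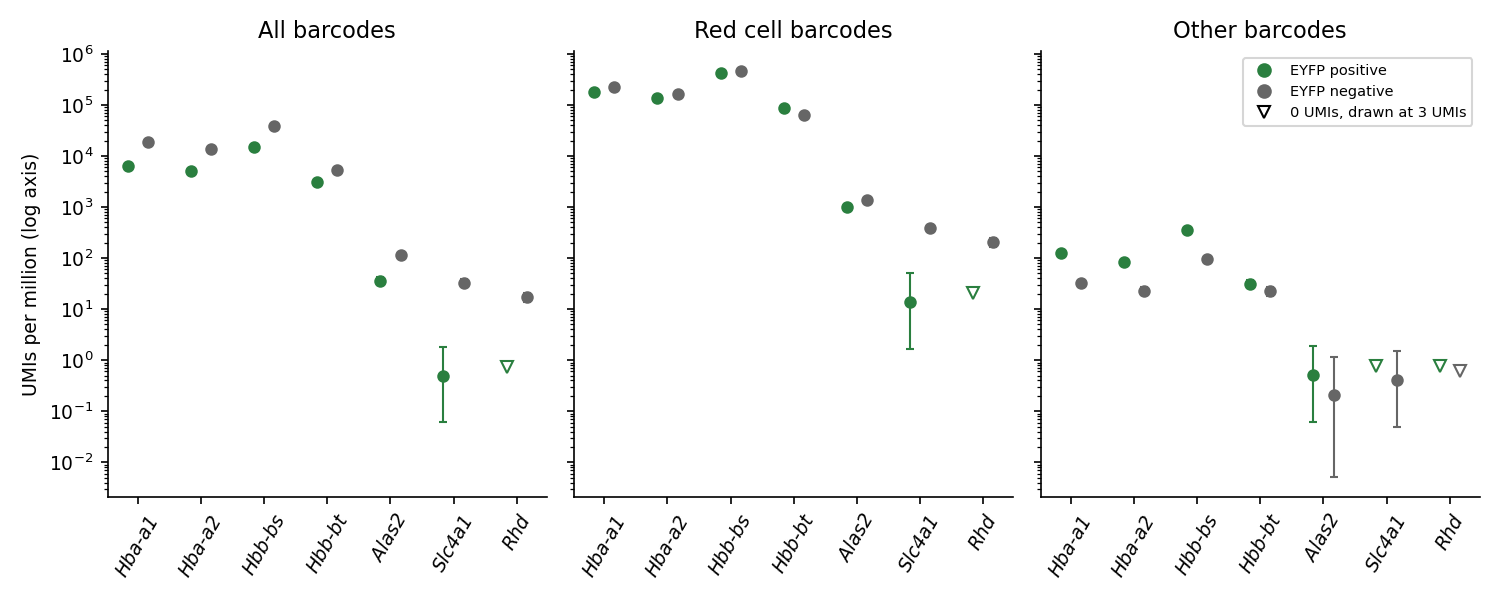
CPM (log axis) of the 7 members in all barcodes, in red cell barcodes and in the other barcodes, with the EYFP positive library left of the EYFP negative library for each gene, and bars for the 95% counting interval. Every member is lower in the EYFP positive library over all barcodes, whereas outside the red cell barcodes the 4 hemoglobin genes are higher in it and Alas2, Slc4a1 and Rhd are at or near 0 in both.

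Hemoglobin UMIs were more concentrated in the EYFP positive library. There 5 barcodes held 50% of them and the 10 barcodes with the most held 84.8%, against 17 barcodes and 33.3% in the EYFP negative library. The barcode with the most hemoglobin held 18338 of its 19215 UMIs as hemoglobin in the EYFP positive library, against 17299 of 27123 in the EYFP negative library. Without the 10 barcodes with the most hemoglobin in each library, chosen after seeing the data, the fold was 0.0887 (0.0873 to 0.0900).

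The red cell barcodes fell into different size classes in the libraries. With limits set after seeing the data, 12 EYFP positive barcodes held under 300 hemoglobin UMIs, 30 held 300 to under 1000, 2 held 1000 to under 3000, 2 held 3000 to under 10000 and 7 held 10000 or more. In the EYFP negative library the numbers were 0, 19, 34, 24 and 16 over the same classes. Most EYFP positive red cell barcodes thus lay under 1000 hemoglobin UMIs, and most EYFP negative ones above.

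The barcodes with the most hemoglobin held little else in either library, apart from EYFP negative ones with 58.4%, 60.6%, 63.8% and 85.7% hemoglobin. Hemoglobin made up a median of 95.4% (93.8 to 96.1) of UMIs in the 7 EYFP positive barcodes with 10000 or more hemoglobin UMIs, and of 97.1% (58.4 to 98.5) in the 16 EYFP negative ones, where the range is given in parentheses. Alas2 stood at 1209 CPM (996 to 1455) in the EYFP positive and 1472 CPM (1321 to 1636) in the EYFP negative barcodes of this class, with a UMI in all 7 and all 16.

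Barcodes with 300 to under 1000 hemoglobin UMIs differed in what else they held. Hemoglobin was a median of 59.7% of UMIs in the 30 EYFP positive barcodes and 94.7% in the 19 EYFP negative ones. Gm42418, a gene model that overlaps ribosomal RNA sequence, took a median of 25.2% of UMIs in the EYFP positive and 0.694% in the EYFP negative barcodes. Acinar secretory genes took a median of 3.39% in the EYFP positive and 0 in the EYFP negative barcodes. Of the markers of other cell types, the T, endothelial and ductal epithelial lists had 2 UMIs each in these 30 barcodes, and the B, macrophage or monocyte, neutrophil, platelet and fibroblast lists had 0. Gm42418 also took 14.5% of UMIs in EYFP positive and 0.352% in EYFP negative barcodes outside the red cell barcodes. Its part in the lower hemoglobin share was not tested.

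Most of the 12 EYFP positive red cell barcodes with under 300 hemoglobin UMIs carried macrophage or monocyte markers. Of these 12, 9 had at least 2 such UMIs. The 12 held 85 in all, among them 42 of Lyz2, the lysozyme of myeloid cells, and 16 of the complement gene C1qa. Csf1r, Adgre1 and Mrc1, of the same list, had 0 UMIs in the 12. The 41 EYFP positive red cell barcodes with 300 or more hemoglobin UMIs had 0 marker UMIs of this list, and the 93 EYFP negative ones had 1. Hemoglobin made up a median of 14.9% of UMIs in the 12 barcodes, and Alas2 had 3 UMIs among their 1550 hemoglobin UMIs.

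Within the red cell barcodes the levels of the members describe what the rule chose. Hemoglobin stood at 819096 CPM in EYFP positive and 912874 CPM in EYFP negative red cell barcodes, a fold of 0.897. Hbb-bt was the member that went the other way, with 85210 CPM (83705 to 86736) in EYFP positive and 63006 CPM (62268 to 63749) in EYFP negative red cell barcodes, a fold of 1.35 (1.32 to 1.38). Alas2, which the rule did not use, stood at 985 CPM (829 to 1161) in EYFP positive and 1402 CPM (1294 to 1517) in EYFP negative red cell barcodes, a fold of 0.702 (0.581 to 0.844). Slc4a1 and Rhd, 2 of the 7, were more than 2-fold lower, where 32.8% of 751 genes were. An Alas2 UMI was seen in 27 of 53 EYFP positive barcodes (50.9%, 36.8 to 64.9), whose median depth was 737 UMIs, against 67 of 93 EYFP negative barcodes (72.0%, 61.8 to 80.9), whose median depth was 2355 UMIs, depths too different to read an order from these shares.

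Over all barcodes the share of Hbb-bt among beta-globin UMIs was higher in the EYFP positive library, but the order turned among the barcodes that the quality filter keeps. Over all barcodes it was 16.8% (16.5 to 17.1) in the EYFP positive library, against 12.1% (11.9 to 12.2) in the EYFP negative library. In the kept barcodes it was 11.6% (10.4 to 12.9) for EYFP positive cells, against 20.1% (19.8 to 20.5) for EYFP negative cells. Of the red cell barcodes, 10 of 53 on the EYFP positive side and 6 of 93 on the EYFP negative side are among the kept ones. The 10 held 2081 of the 3842 hemoglobin UMIs kept in their library, and the 6 held 75988 of 76772. Across the EYFP negative red cell barcodes the Hbb-bt share ran from 0.262% to 25.5% with a median of 2.59%. Across the 43 EYFP positive red cell barcodes with at least 200 hemoglobin UMIs it ran from 1% to 28.5% with a median of 16.7%. The medians of the libraries therefore stood much further apart than the shares of the summed UMIs.

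In the EYFP negative library the share went with the amount of hemoglobin in a barcode. Its median was 1.30% in the 19 barcodes with 300 to under 1000 hemoglobin UMIs, 1.71% in the 34 with 1000 to under 3000, 3.52% in the 24 with 3000 to under 10000 and 18.8% in the 16 with 10000 or more. In the last class its lowest value was 13.4%. The EYFP positive barcodes did not follow this order. The median was 16.7% in the 30 barcodes with 300 to under 1000 hemoglobin UMIs, from 13.1% to 28.5%, and 17.98% in the 7 with 10000 or more, from 15.9% to 23.2%. The 4 EYFP positive barcodes that held 1274, 2654, 3984 and 6554 hemoglobin UMIs had shares of 17.7%, 1%, 2.07% and 8.91% in this order. These lay within the range of EYFP negative barcodes of their size class. For the share of 17.7% this holds through 1 EYFP negative barcode with 21.4%, since the next highest of that class had 11.1%. The classes from 300 to under 1000 did not overlap between the libraries, since the highest EYFP negative share there was 4.66%. Reads that fit both near copies make each share uncertain, and how they were counted is not known here.

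**Figure D3:**
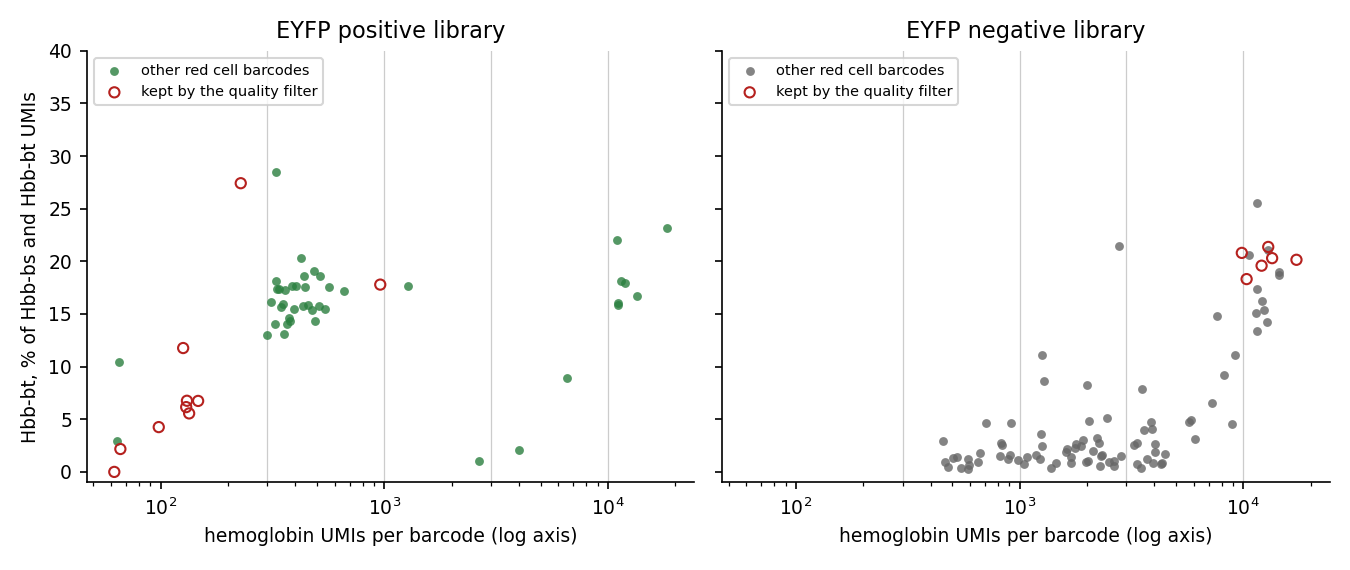
Hbb-bt as a percent of Hbb-bs and Hbb-bt UMIs in each red cell barcode against its hemoglobin UMIs (log axis), EYFP positive on the left and EYFP negative on the right, with class limits as grey lines and barcodes that the quality filter keeps as open red circles. EYFP negative barcodes under 3000 hemoglobin UMIs have medians of 1.30% and 1.71%, while EYFP positive barcodes from 300 to under 1000 have a median of 16.7%.

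Beta-globin made up 61.4% (61.1 to 61.6) of hemoglobin UMIs in the EYFP positive library, against 57.3% (57.1 to 57.4) in the EYFP negative library. Across red cell barcodes with at least 200 hemoglobin UMIs its median was 61.6% (quartiles 60.4% and 63.2%) for the 43 EYFP positive barcodes and 56.1% (quartiles 49.4% and 60.1%) for the 93 EYFP negative ones. The full ranges overlapped, from 52.8% to 81.6% in EYFP positive and from 29.6% to 73.4% in EYFP negative barcodes. Hba-a1 made up 56.0% (55.5 to 56.4) of alpha-globin UMIs in the EYFP positive library, against 57.7% (57.5 to 57.9) in the EYFP negative library. Its median over red cell barcodes with at least 200 hemoglobin UMIs was 57.4% in both libraries.

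Outside the red cell barcodes hemoglobin was higher in the EYFP positive library, a direction that depends on which barcodes are set aside. It stood at 603 CPM (579 to 628) in 1664 EYFP positive barcodes and 173 CPM (162 to 185) in 652 EYFP negative barcodes, a fold of 3.48 (3.22 to 3.77). With red cell barcodes taken at 5%, 25% or 50% hemoglobin the fold was 1.86, 6.76 or 8.58, and with red cell barcodes taken by erythroid markers other than hemoglobin it turned to 0.332. A hemoglobin UMI was seen in 504 of 1664 EYFP positive barcodes (30.3%) whose median depth was 936.5 UMIs, against 441 of 652 EYFP negative barcodes (67.6%) whose median depth was 7241.5. When each barcode was thinned to 500 UMIs, a hemoglobin UMI was left in 283 EYFP positive barcodes (17.01%, 15.2 to 18.9), against 73 EYFP negative ones (11.2%, 8.88 to 13.9). All barcodes reached that depth. The share of barcodes without thinning therefore ran against the level, and no order is read from it.

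Hba-a1 stood at 128 CPM (117 to 139) in the EYFP positive and 31.9 CPM (27.1 to 37.4) in the EYFP negative barcodes of this set, Hba-a2 at 82.8 CPM (74.0 to 92.4) in the EYFP positive and 22.9 CPM (18.8 to 27.5) in the EYFP negative ones. Hbb-bs stood at 361 CPM (342 to 381) in the EYFP positive and 95.8 CPM (87.3 to 105) in the EYFP negative barcodes. Hbb-bt differed least, with 31.6 CPM (26.2 to 37.7) in the EYFP positive and 22.5 CPM (18.4 to 27.1) in the EYFP negative barcodes, a fold of 1.41 (1.08 to 1.84). Alas2 had 2 UMIs in EYFP positive and 1 in EYFP negative barcodes, Slc4a1 had 0 in EYFP positive and 2 in EYFP negative barcodes, and Rhd had 0 in both. Of the 4 members with at least 10 UMIs here, 3 were more than 2-fold higher, where 22.8% of 13332 genes were, and 15.2% of them were more than 2-fold lower.

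The higher level outside the red cell barcodes came mainly from barcodes with macrophage markers. A marker gate took a barcode with at least 2 UMIs of a list and at least 2 times those of any other list. The macrophage or monocyte gate stood at 6492 CPM (6144 to 6854) in 44 EYFP positive barcodes and 123 CPM (67.4 to 207) in 12 EYFP negative barcodes, a fold of 52.6 (31.3 to 96.5). Those 44 barcodes held 1301 of the 2330 hemoglobin UMIs found outside the red cell barcodes. Of the 44, 12 had 0 hemoglobin UMIs, 12 had 1 to 9 and 20 had 10 or more, up to 205. The 12 EYFP negative barcodes had at most 3. Without this gate the fold over the remaining barcodes was 1.61 (1.47 to 1.77), with 281 CPM in the EYFP positive and 174 CPM in the EYFP negative library.

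The T and B gates had a low level that was lower in the EYFP positive library. The T gate stood at 116 CPM (92.4 to 144) in 204 EYFP positive and 163 CPM (150 to 177) in 416 EYFP negative barcodes. The B gate stood at 120 CPM (86.4 to 163) in 118 EYFP positive and 180 CPM (153 to 211) in 116 EYFP negative barcodes. Over the T, B, fibroblast and ductal epithelial gates together the level was 107 CPM (93.8 to 122) in 592 EYFP positive and 166 CPM (155 to 178) in 542 EYFP negative barcodes, a fold of 0.644 (0.554 to 0.747). The intervals of the fibroblast fold (0.629, 0.308 to 1.36) and of the ductal epithelial fold (0.729, 0.378 to 1.58, with 2 EYFP negative barcodes) include 1. A hemoglobin UMI was seen in 29.4% of EYFP positive T gate barcodes (median depth 1633.5 UMIs) and in 74.5% of EYFP negative ones (median depth 8391.5 UMIs). The source of the hemoglobin UMIs in these gates was not tested.

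This order of T gates turned with equal weight per barcode. Thinned to 500 UMIs, the T gate held 314 CPM (215 to 443) in the EYFP positive and 173 CPM (121 to 240) in the EYFP negative library, intervals that overlap. The thinned B gate kept its order, with 186 CPM (93.1 to 334) in the EYFP positive and 345 CPM (211 to 533) in the EYFP negative library. These intervals overlap too. As a mean over barcodes without thinning, the B gate order turned as well, with 227 CPM in the EYFP positive and 208 CPM in the EYFP negative library. No order of the B gates is therefore read with equal weights. The level fell as depth rose in both libraries. Outside the red cell barcodes, hemoglobin stood at 1946 CPM in EYFP positive and 742 CPM in EYFP negative barcodes with under 1000 UMIs, at 865 CPM in EYFP positive and 249 CPM in EYFP negative barcodes from 1000 to under 5000, and at 33.9 CPM in EYFP positive and 161 CPM in EYFP negative barcodes with 5000 or more. Whether depth sets the order between the libraries was not tested.

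The endothelial gate stood at 886 CPM (752 to 1036) in 63 EYFP positive and 286 CPM (152 to 490) in 11 EYFP negative barcodes, but 4 EYFP positive barcodes held 132 of its 156 hemoglobin UMIs. Barcodes in no gate stood at 487 CPM (450 to 527) in 964 EYFP positive and 453 CPM (338 to 594) in 87 EYFP negative barcodes. Only 1 of 204 EYFP positive T gate barcodes held 10 or more hemoglobin UMIs (0.490%, 0.0124 to 2.70), against 20 of 44 in the macrophage or monocyte gate (45.5%, 30.4 to 61.2). Barcodes with under 10 hemoglobin UMIs, a limit added after seeing the data, held 169 CPM (156 to 183) in the EYFP positive and 171 CPM (159 to 183) in the EYFP negative library.

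**Figure D4:**
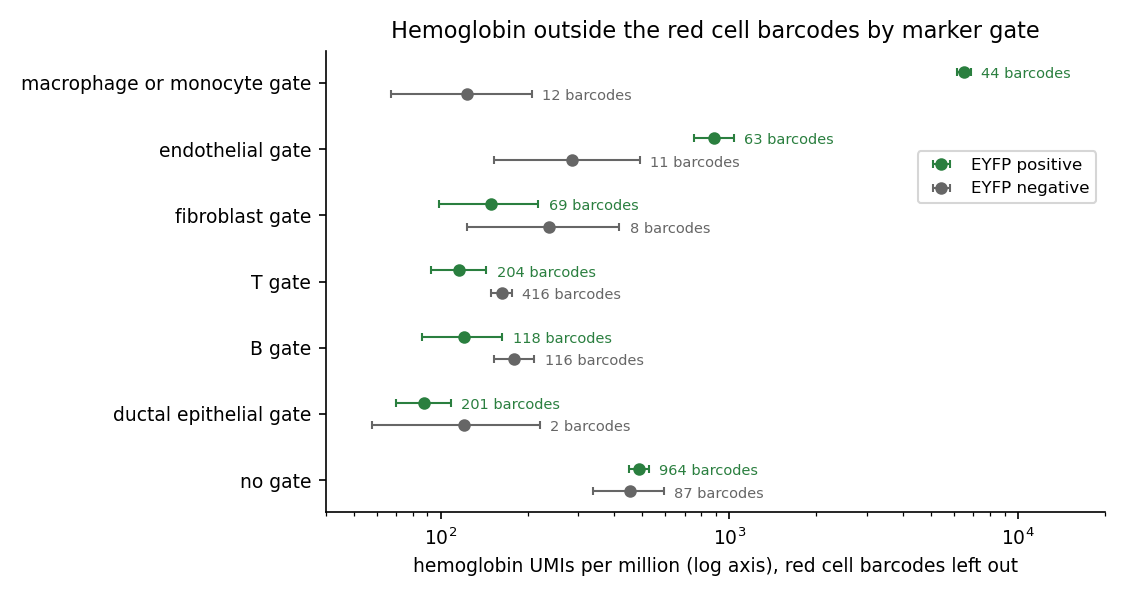
Hemoglobin CPM (log axis) outside the red cell barcodes by marker gate, with the EYFP positive library above the EYFP negative library, bars for the 95% counting interval and the number of barcodes beside each point. The macrophage or monocyte gate stands at 6492 CPM in the EYFP positive and 123 CPM in the EYFP negative library, and the T gate at 116 CPM in the EYFP positive and 163 CPM in the EYFP negative library.

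The mixture of globin genes outside the red cell barcodes differed from that inside. Hbb-bt made up 8.04% (6.72 to 9.53) of beta-globin UMIs in the EYFP positive and 19.0% (15.9 to 22.4) in the EYFP negative barcodes outside, against 16.97% in EYFP positive and 12.1% in EYFP negative red cell barcodes. In the EYFP positive macrophage or monocyte gate it was 5.33% (3.91 to 7.06), and in the other EYFP positive barcodes outside 11.5% (9.15 to 14.1). The EYFP negative value outside pooled unlike gates, with 15.9% (12.4 to 19.9) in the T gate and 30.5% (22.4 to 39.7) in the B gate. The median in the largest EYFP negative red cell barcodes was 18.8%. Which barcodes the UMIs outside came from was not tested.

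EYFP positive barcodes of the macrophage or monocyte gate differed in more than hemoglobin. The 20 with 10 or more hemoglobin UMIs had a median of 915.5 UMIs, and the 24 with fewer had a median of 5967.5. The ferritin genes, which encode the iron store of cells, were higher in the 20: Ftl1 at 24127 CPM (22278 to 26089) in the 20 and 7193 CPM (6800 to 7602) in the 24, and Fth1 at 20522 CPM (18819 to 22337) in the 20 and 7405 CPM (7006 to 7820) in the 24. The heme oxygenase gene Hmox1 stood at 153 CPM (41.8 to 393) in the 20 and 384 CPM (298 to 488) in the 24. The hemoglobin scavenger receptor gene Cd163 and the iron exporter gene Slc40a1 had 0 UMIs in the 20, where 3 UMIs would be 115 CPM, and 224 CPM (159 to 306) and 172 CPM (116 to 246) in the 24. The markers of the gate itself went both ways. Lyz2 was at 10280 CPM (9086 to 11587) in the 20 and 8879 CPM (8442 to 9333) in the 24. Higher in the 20 were also Cd68 (997 CPM, against 356 in the 24), C1qa (4143, against 3074), C1qb (4450, against 2885) and C1qc (2608, against 2185). Lower in the 20 were Mrc1 (76.7 CPM from 2 UMIs, against 792 in the 24), Adgre1 (76.7 from 2 UMIs, against 287) and Csf1r (192, against 499). Alas2, Slc4a1 and Rhd had 0 UMIs in all 44. These barcodes were split by their hemoglobin, within 1 library, so the values describe them.

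Genes of red cell clearance and heme uptake by macrophages were higher in the EYFP positive library over all barcodes. Of 9 listed genes 6 had at least 10 UMIs, and 5 of these were more than 2-fold higher, with a median log2 fold of 2.67 (23.1% of all genes were more than 2-fold higher). Hmox1 was 6.14-fold higher (3.60 to 11.1), Slc40a1 16.7-fold (6.77 to 53.1), Vcam1, an adhesion molecule, 6.61-fold (3.05 to 16.3), and Lrp1, the receptor for heme bound to hemopexin, 4.68-fold (3.54 to 6.26). Markers of macrophages or monocytes moved with them, with 3953 UMIs in 84 EYFP positive and 1630 UMIs in 38 EYFP negative barcodes outside the red cell barcodes. So did those of fibroblasts (1152 CPM in EYFP positive, 391 CPM in EYFP negative), endothelial and ductal epithelial cells, while T and B markers were lower. Of the EYFP positive UMIs outside, the 24 and 20 gate barcodes described above held 67 and 4 of 79 for Hmox1. They held 30 and 0 of 63 for Slc40a1, 23 and 0 of 40 for Vcam1, and 49 and 10 of 229 for Lrp1. Fewer cells of a type and less RNA per cell cannot be told apart in these sums.

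Other erythroid genes were read from the red cell barcodes, where most were lower in the EYFP positive library. Membrane and skeleton genes had 12 of 15 measured members more than 2-fold lower and 0 higher, where 32.8% of all 751 genes were lower and 13.8% higher. Their median log2 fold was -1.31, against -0.49 over all genes. The skeleton gene Epb41 differed from most of the list, with 328 CPM (241 to 437) in EYFP positive and 266 CPM (221 to 319) in EYFP negative red cell barcodes. The water channel gene Aqp1 had 1 UMI in EYFP positive and 32 in EYFP negative red cell barcodes, but 241 in EYFP positive and 85 in EYFP negative barcodes outside them. The glucose transporter gene Slc2a1 had 0 UMIs in EYFP positive and 1 in EYFP negative red cell barcodes.

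Heme synthesis genes had 5 of 8 measured members more than 2-fold lower and 0 higher in red cell barcodes (all genes: 32.8% lower, 13.8% higher). Fech, which puts iron into heme, stood at 182 CPM (119 to 266) in EYFP positive and 278 CPM (231 to 331) in EYFP negative red cell barcodes. Cpox, an earlier enzyme, had 0 UMIs in EYFP positive and 40 in EYFP negative red cell barcodes, where 0 of 143175 UMIs, taken as 3, allows up to 20.95 CPM. Tmem14c, a mitochondrial protein needed for heme synthesis, had 1 UMI in EYFP positive and 5 in EYFP negative red cell barcodes. Of the chaperone and heme synthesis list, 9 of 10 symbols were found in the tables.

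For iron uptake and transport, 1 of 4 measured genes was more than 2-fold lower in red cell barcodes and 0 were higher, near the share of all genes (32.8% lower, 13.8% higher). The mitochondrial iron importer gene Slc25a37 stood at 182 CPM (119 to 266) in EYFP positive and 332 CPM (280 to 390) in EYFP negative red cell barcodes. The transferrin receptor gene Tfrc had 0 UMIs in EYFP positive and 43 UMIs in 3 EYFP negative red cell barcodes. Fth1 stood at 1055 CPM (893 to 1237) in EYFP positive and 770 CPM (690 to 856) in EYFP negative red cell barcodes, and Ftl1 at 1767 CPM (1556 to 1999) in EYFP positive and 1375 CPM (1268 to 1489) in EYFP negative ones. However, 93 of the 151 Fth1 and 91 of the 253 Ftl1 UMIs in EYFP positive ones lay in the 12 with under 300 hemoglobin UMIs. Of these 12, 9 carried macrophage or monocyte markers, so no order of red cells is read from the ferritin genes.

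Of the genes of late red cell maturation, 0 of 7 measured were past 2-fold in either direction in red cell barcodes, where 32.8% of all genes were lower and 13.8% higher. Their median log2 fold was -0.08, against -0.49 over all genes. Bpgm, which makes the 2,3-bisphosphoglycerate that lowers the oxygen affinity of hemoglobin, stood at 1257 CPM (1080 to 1455) in EYFP positive and 666 CPM (592 to 747) in EYFP negative red cell barcodes. Of the genes named from this list, Bpgm was the one whose interval in EYFP positive barcodes lay wholly above that in EYFP negative ones. Mkrn1, a ubiquitin ligase gene, stood at 796 CPM (657 to 957) in EYFP positive and 650 CPM (577 to 730) in EYFP negative ones. Bnip3l, which is needed to clear mitochondria from young red cells, stood at 405 CPM (308 to 524) in EYFP positive and 336 CPM (285 to 395) in EYFP negative ones. Isca1, an iron-sulfur cluster gene, stood at 244 CPM (170 to 340) in EYFP positive and 264 CPM (219 to 317) in EYFP negative ones.

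Of the red cell enzymes and antioxidants, 3 of 7 measured genes were more than 2-fold lower and 0 higher, a share near that of all genes (32.8% lower). Prdx2, a peroxiredoxin, stood at 161 CPM (102 to 241) in EYFP positive and 578 CPM (509 to 653) in EYFP negative red cell barcodes. Gpx1, a glutathione peroxidase, stood at 782 CPM (644 to 941) in EYFP positive and 1025 CPM (933 to 1124) in EYFP negative ones, and Glrx5, a mitochondrial glutaredoxin, at 105 CPM (58.6 to 173) in EYFP positive and 167 CPM (131 to 210) in EYFP negative ones. Among the transcription factors, 4 of 5 measured genes were more than 2-fold lower and 0 higher (all genes: 32.8% lower). Klf1, an activator of the adult beta-globin genes, had 0 UMIs in the EYFP positive library, against 21 in 2 EYFP negative red cell barcodes. Gata1, a master regulator of red cell genes, had 0 UMIs in EYFP positive and 3 in EYFP negative red cell barcodes. Lmo2, a cofactor of Gata1 complexes, had 3 UMIs in EYFP positive and 28 in EYFP negative ones, and the Gata1 cofactor Zfpm1 had 1 in EYFP positive and 13 in EYFP negative ones.

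The embryonic globin genes were at or near 0. Hbb-y, Hbb-bh2 and Hba-x had 0 UMIs in both libraries, and Hbb-bh1 had 0 in the EYFP positive and 1 in the EYFP negative library. The theta-like genes Hbq1a and Hbq1b had 7 and 2 UMIs in the EYFP positive and 8 and 13 UMIs in the EYFP negative library, all in red cell barcodes.

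**Figure D5:**
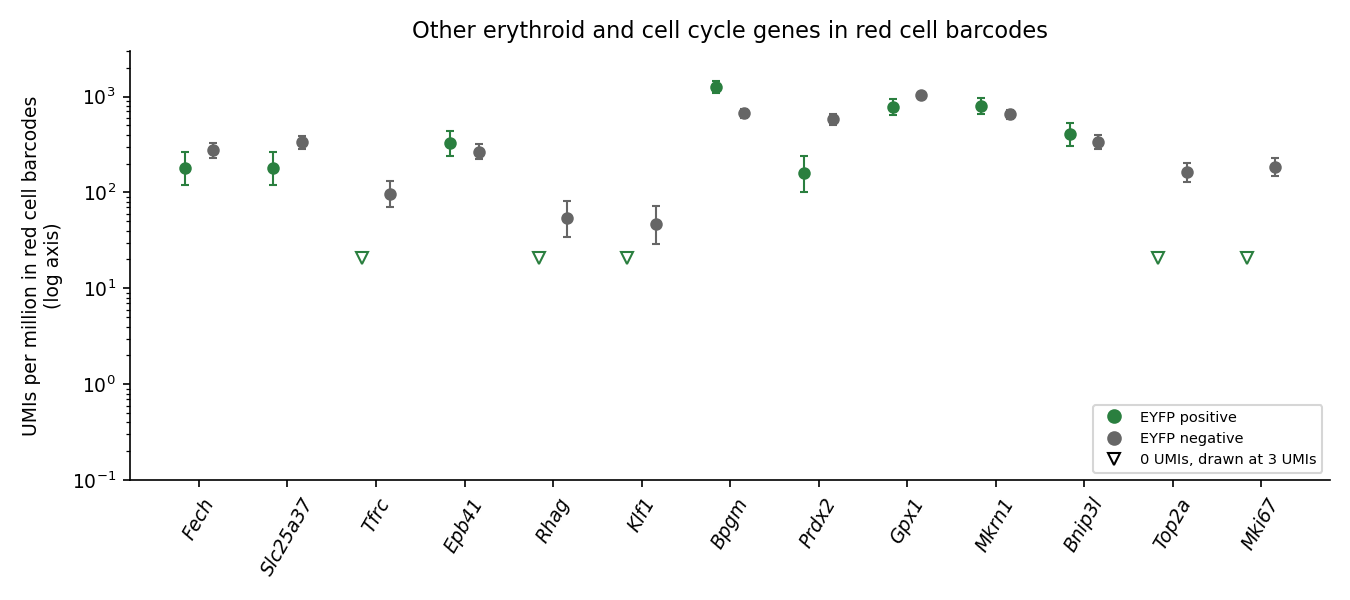
CPM (log axis) in red cell barcodes for other erythroid genes and 2 cell cycle genes, with the EYFP positive library left of the EYFP negative library, bars for the 95% counting interval and open triangles at 3 UMIs where a gene had 0. Tfrc, Rhag, Klf1, Top2a and Mki67 had 0 UMIs in the EYFP positive red cell barcodes, while Bpgm stood at 1257 CPM in the EYFP positive and 666 CPM in the EYFP negative ones.

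The EYFP negative UMIs of these early genes came from few barcodes. The red cell barcode with 17299 hemoglobin UMIs held 2255 genes, 46 Alas2 UMIs and 222 UMIs of the cell cycle list. Another with 12080 hemoglobin UMIs held 2209 genes, 24 Alas2 UMIs and 258 cell cycle UMIs. These 2 and a barcode with 12935 hemoglobin UMIs, 704 genes and 4 cell cycle UMIs are the 3 that held Rhd. A further barcode with 13465 hemoglobin UMIs and 2423 genes held 39 UMIs of the T cell markers, 1 Slc4a1 UMI and 0 of Rhd. The EYFP positive red cell barcode with the most genes held 838, with 959 hemoglobin UMIs and 2058 UMIs of the acinar secretory list. Of the 15 listed cell cycle genes, 9 were more than 2-fold higher and 4 more than 2-fold lower in EYFP negative red cell barcodes than in the rest of that library, where 2.43% of 11365 genes were higher and 60.6% lower. Top2a and Mki67, of dividing cells, had 72 and 82 UMIs in EYFP negative red cell barcodes and 0 in EYFP positive ones. Pcna and Tubb5 had 1 and 38 UMIs in the EYFP negative ones, and 0 and 1 in the EYFP positive ones. Nusap1, of the same list, was seen in both, with 70 UMIs in 8 EYFP negative and 13 UMIs in 4 EYFP positive red cell barcodes.

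The genes whose pattern was most like that of the members were ranked by the share of their EYFP negative UMIs in red cell barcodes, among 9931 genes with at least 20 UMIs in that library. Red cell barcodes held 8.36% of all EYFP negative UMIs and 3.57% of all EYFP positive UMIs. The share was over 50% for 49 genes. It was 100% for Apol11b, Trim10, Tspo2, Cldn13, Rhag, Rec114 and Klf1, which had 72, 41, 34, 29, 24, 23 and 21 UMIs in this order. Among the members it ran from 98.9% for Slc4a1 to 100% for Rhd. Apol11b had UMIs in 13 EYFP negative red cell barcodes and Rec114 in 16, while Cldn13 and Rhag had them in 3 each. In the EYFP positive library Apol11b had 11 UMIs, Rec114 9 and Tspo2 3, all in red cell barcodes, and Trim10, Cldn13, Rhag and Klf1 had 0.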

How the data were processed

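Each library was deposited by the authors as raw, whole UMI counts by gene and barcode. The labels' protocols name a Chromium Single Cell 5′ kit (v1.1), but the transcript end that was read was not checked. The submitters' processing notes list Cell Ranger 2.1.0 and GRCh38, whereas per the file headers the software version is 3.1.0 and the identifiers are mouse Ensembl ones, so no mapping build is assumed. Of 31053 identifiers 31011 were found in GENCODE M21, the source of the gene coordinates and transcripts.

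UMIs were summed per library and set of barcodes and divided by the set's total (CPM). CPM carry exact Poisson intervals, shares exact Clopper-Pearson intervals and folds exact conditional binomial intervals, all at 95%. A sum of 0 was taken as 3 UMIs, and no fold is given where both sums are at most 3. Counts of genes past 2-fold used genes with at least 10 UMIs. No doublets were removed. Named genes were the members, up to 4 genes with the most UMIs per list, and the 10 genes most confined to EYFP negative red cell barcodes. Some genes that this rule takes are not reported here. Any others were chosen after their values were seen. The members, lists, gates and limits were chosen with earlier results of these data known. The alternatives were other limits, a quality filter, another total, thinning and left-out barcodes. Python 3.11.15, numpy 2.4.6, scipy 1.17.1 and pandas 2.3.3 were used, and the fold intervals were tested on simulated data.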

Additional observations from a re-analysis of the deposited data

How the results depend on the processing

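No paired analysis was possible because each group is 1 library. Of 53 alternative values, 13 counted as staying within the counting interval of the reported value, 38 moved outside it and 2 folds reversed. Rhd has no such interval, so its alternatives, counted as staying, were held against a set band around its reported bound. Of the reversed folds, that of 0.990 (0.892 to 1.10) has an interval that includes 1. Shares were compared within their own library, so a turned order between the libraries was not counted as reversed. The order of the red cell share turned under the quality filter (1.16% EYFP positive, 1.08% EYFP negative). That of the beta-globin share turned outside the red cell barcodes (65.1% and 68.3%). In both cases the intervals of the libraries overlap. Under the quality filter (200 or more genes, mitochondrial UMIs up to 20%), the EYFP positive over EYFP negative fold of hemoglobin over all barcodes was 0.0885. It was 0.352 with hemoglobin, mitochondrial, ribosomal protein and acinar genes left out of the total, which moved every fold over all barcodes by -0.15 on the log2 scale, 0.345 without the barcode with the most hemoglobin in each library, 0.156 as a mean over barcodes, 0.374 without shared barcode sequences and 0.0887 without the 10 barcodes with the most hemoglobin. Under the quality filter the folds of Hba-a1, Hba-a2, Hbb-bs, Hbb-bt and Alas2 were 0.0657, 0.0744, 0.114, 0.0589 and 0.0218. With the reduced total those of the 4 hemoglobin genes in this order were 0.309, 0.332, 0.357 and 0.525. Without the 3 EYFP negative barcodes that hold Rhd they were 0.382, 0.396, 0.433 and 0.700, and Slc4a1 stood at 0.137.

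The share of red cell barcodes in the EYFP positive library was 4.08% at a 5% limit, 2.21% at a 50% limit, 1.34% by the erythroid markers other than hemoglobin and 1.16% under the quality filter. In the EYFP negative library it was 7.25% by those markers and 1.08% under the filter. The fold outside red cell barcodes was 1.86 at a 5% limit, 6.76 at 25%, 8.58 at 50%, 3.90 under the quality filter, 5.02 after thinning and 1.61 without the macrophage or monocyte gate. It turned to 0.332 with red cell barcodes taken by the other erythroid markers, which leave many hemoglobin-rich barcodes outside, and to 0.990 (0.892 to 1.10) without barcodes of 10 or more hemoglobin UMIs. The beta-globin share was 65.1% in the EYFP positive and 68.3% in the EYFP negative library outside red cell barcodes, 67.3% and 58.1% under the quality filter, and 62.2% and 54.7% over red cell barcodes with at least 200 hemoglobin UMIs weighted equally. The alternatives that leave out the 10 largest barcodes, the macrophage or monocyte gate, barcodes with 10 or more hemoglobin UMIs or the barcodes with Rhd, and the equal weights, were chosen after seeing the data. Of the causes, only those that follow from an alternative's own construction are named.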
